A study of Mus musculus with 9 samples.

Results

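The genes described here encode the INK4 inhibitors and the core of the retinoblastoma pathway in NMuMG cells. They are 10 genes of the 52459 gene symbols in the deposited quantification, taken by symbol: *Cdkn2a*, *Cdkn2b*, *Cdkn2c*, *Cdkn2d*, *Cdkn1b*, *Rb1*, *Rbl1*, *Rbl2*, *Cdk4* and *Ccnd1*. They account for 43 of 131100 transcripts, and all 10 passed the filter on low counts that left 15370 genes for testing. NMuMG is an immortalized epithelial cell line from the mouse mammary gland. The study asked what overexpression of EPR does in these cells, a long non-coding RNA (BC030870) that also holds a short open reading frame, and whether the encoded peptide is needed.

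Total RNA was sequenced from 9 libraries, 3 in each of 3 groups. Mock cells carried the empty pBICEP-CMV-2-based vector, EPR cells carried the vector with the full EPR transcript, and EPRSTOPE cells carried EPR with a point mutation that places a stop codon at the second codon of its reading frame. All 3 groups were pools of stably transfected cells selected with G418 and grown in DMEM with 10% FCS, with no added TGF-β in any label, and the labels give neither a time nor whether the libraries of a group came from separate pools. The study's methods also list insulin in the medium of NMuMG cells. They call the libraries of a group biological triplicates and do not say whether these were separate pools. The paper's results mention 3 independent pools of EPRSTOPE cells but do not tie them to these libraries. The p-values therefore measure the spread between these libraries, which need not be the spread between pools. Libraries are named by the numbers 203 to 211 of their titles: 203 to 205 are mock, 206 to 208 EPR and 209 to 211 EPRSTOPE.

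In textbook terms, cyclin D1 (*Ccnd1*) activates the kinase CDK4 (*Cdk4*), and the active kinase phosphorylates the retinoblastoma protein (*Rb1*) and its relatives p107 (*Rbl1*) and p130 (*Rbl2*), which releases E2F transcription factors to switch on genes for DNA replication. The INK4 proteins p16, p15, p18 and p19 (*Cdkn2a*, *Cdkn2b*, *Cdkn2c* and *Cdkn2d*) bind CDK4 and CDK6 and block this step, whereas p27 (*Cdkn1b*) is of the Cip/Kip family and acts mainly on CDK2. *Cdkn2a* also encodes ARF, an unrelated protein read in another frame, which restrains MDM2 and so protects p53, and in epithelial cells *Cdkn2b* is a classical target of TGF-β signalling.

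Libraries held 5972457 to 11876435 estimated counts, at which 3 counts correspond to 0.253 to 0.502 counts per 1000000 counts of the library (CPM), and the lowest count of any of the 10 genes in any library was 12. EPR RNA was at 0, 0 and 2 counts in the mock libraries, 214 to 271 in the EPR libraries and 28 to 39 in the EPRSTOPE libraries, so that EPRSTOPE cells held 4.24 ± 0.48 CPM of it against 24.9 ± 1.9 CPM in EPR cells (SD, n = 3). The groups with EPR RNA therefore differ in its amount as well as in the mutation, and in the comparison of EPR with EPRSTOPE these cannot be told apart. The summed level of 8 luminal epithelial markers was 3692 to 4157 CPM in mock, 9492 to 10600 CPM in EPR and 10686 to 11023 CPM in EPRSTOPE libraries, and 3, 6 and 5 of the 8 reached 1 CPM on average. *Cdh1*, *Epcam*, *Cldn3*, *Cldn4* and *Ocln* were below 1 CPM in mock cells, so the epithelial label of these cells rests there on the keratins *Krt8*, *Krt18* and *Krt19*. The summed level of 9 mesenchymal markers was 3707 to 3867, 2083 to 2307 and 3796 to 4149 CPM, that of 6 basal markers 10.7 to 12.2, 1.39 to 1.83 and 2.88 to 3.56 CPM, that of 4 endothelial markers at most 16.7 CPM and that of 4 immune markers at most 3.83 CPM in any library. The mesenchymal sum was mostly *Vim*, at 2634, 1768 and 3138 CPM on average, and *Fn1*, at 1039, 379 and 782 CPM. In EPRSTOPE cells *Vim* was thus above and *Fn1* below the mock mean. The basal sum was mostly *Acta2* in mock and EPR cells and mostly *Krt14* in EPRSTOPE cells. *Acta2* stood at 10.1, 1.17 and 0.80 CPM on average and *Krt14* at 0.90, 0.00 and 2.32 CPM, while *Trp63* had no count. The part of these shifts in the results below was not tested, and in bulk RNA fewer cells of a type and less RNA per cell cannot be told apart.

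*Cdkn2a* had the largest log2 fold changes of the 10 genes against mock in both other groups, and the files list 2 transcripts for it, which share exon 2 but start at different exons. Cdkn2a-201 (ENSMUST00000060501.4) encodes p16INK4a in 168 codons and Cdkn2a-202 (ENSMUST00000107131.1) encodes ARF in 169 codons. Both lie on the minus strand of chromosome 4 of GRCm38. The ARF transcript starts with an exon of 320 nt at chr4:89294334-89294653, the INK4a transcript with an exon of 207 nt at chr4:89281986-89282192, and both continue into the 341 nt exon 2 at chr4:89276645-89276985. The last exon also differs in length, with 304 nt in Cdkn2a-201 and 234 nt in Cdkn2a-202. The sequences across the junction of exons 1 and 2 are shown because reads over it, like those over exon 1, separate the transcripts. They hold 30 bases of each side on the strand of the gene, with exon 2 in capitals.
Cdkn2a-201 junction: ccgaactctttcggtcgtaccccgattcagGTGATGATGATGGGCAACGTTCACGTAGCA
Cdkn2a-202 junction: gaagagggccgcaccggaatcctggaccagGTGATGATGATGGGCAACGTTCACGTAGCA

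Nearly all *Cdkn2a* counts were assigned to the ARF transcript. Cdkn2a-202 had 174, 335 and 461 estimated counts in mock libraries, 75, 49 and 70 in EPR libraries and 27, 35 and 16 in EPRSTOPE libraries. Cdkn2a-201 had 3 counts in mock library 205 and 0 counts in each of the other 8 libraries. The INK4a share of the gene was thus 3 of 973 counts in mock cells (0.308%, exact Clopper-Pearson 95% interval 0.0636 to 0.898%). It was 0 of 194 counts in EPR cells, which allows a share of up to 1.55% by the limit of 3 counts and up to 1.88% by the same exact interval. It was 0 of 78 in EPRSTOPE cells, which allows up to 3.85% and 4.62% in the same way. Intervals and limits cover counting error only, and they rest on how the authors' quantification divided reads of the shared exons. The values of *Cdkn2a* below are therefore in effect those of the ARF transcript, and a change of the INK4a transcript was not detectable at this depth.

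**Figure D1:**
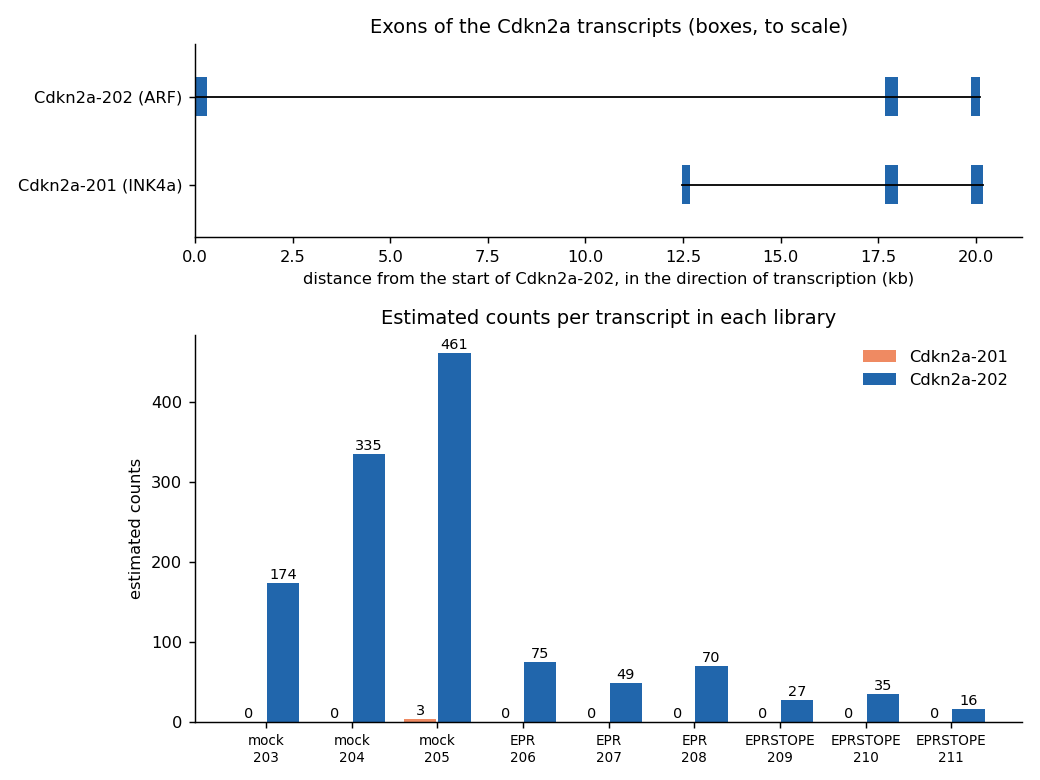
Top: exons of both Cdkn2a transcripts as boxes, by distance from the start of Cdkn2a-202 in kb. Bottom: estimated counts per transcript in each of the 9 libraries, not scaled for library size. Cdkn2a-202 ran from 174 to 461 counts in mock and from 16 to 75 in the other libraries, and Cdkn2a-201 had counts in 1 library.

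In a fit across 45412 transcripts, Cdkn2a-202 fell by 2.32 on the log2 scale in EPR cells (SE 0.33, adjusted p = 0.0039 in the quasi-likelihood test of edgeR, adjusted by Benjamini and Hochberg's method) and fell by 3.27 in EPRSTOPE cells (SE 0.35, adjusted p = 7.6e-04). The background of transcripts called was 4.07% in the comparison of EPR with mock, 4.64% in that of EPRSTOPE with mock and 0.854% in that of EPR with EPRSTOPE. Between EPR and EPRSTOPE the log2 difference of Cdkn2a-202 was 0.95 (SE 0.33, adjusted p = 0.25), which did not pass. The call in EPR cells was lost on leaving out mock library 204 (adjusted p = 0.017), mock library 205 (0.019) or EPR library 206, 207 or 208 (0.021, 0.022 and 0.021 in the edgeR fit), with log2 fold changes from -2.47 to -2.23 over all libraries left out. Cdkn2a-201 was below the filter and was not tested.

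As a gene sum, *Cdkn2a* (ENSMUSG00000044303.6) stood at 27.0, 35.3 and 37.8 CPM in mock libraries, 6.55, 6.19 and 6.54 CPM in EPR libraries and 4.57, 3.74 and 1.84 CPM in EPRSTOPE libraries. The 3 groups did not overlap: every mock library was above every EPR library, and every EPR library above every EPRSTOPE library. The mean in EPR cells was 0.192 of the mock mean, with a log2 fold change of -2.38 (SE 0.21, adjusted p = 1.8e-06 in edgeR). In EPRSTOPE cells it was 0.101 of the mock mean, with a log2 fold change of -3.34 (SE 0.24, adjusted p = 2.3e-07 in edgeR). Between EPR and EPRSTOPE the difference was 0.96 (95% interval 0.40 to 1.53, adjusted p = 0.015 in edgeR), which did not pass 0.01. It passed in DESeq2 (adjusted p = 0.0014), with no filter on low counts (3.5e-05), with at least 10 counts in every library (0.0075) and without EPRSTOPE library 209 (1.20, adjusted p = 0.0074 in edgeR).

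Of the 10 genes, 7 were called changed in EPR against mock, with a log2 fold change over 0.5 in size at an adjusted p below 0.01. Of these, 2 rose (*Cdkn2b* and *Ccnd1*) and 5 fell (*Cdkn2a*, *Cdkn2c*, *Cdkn2d*, *Rbl1* and *Cdk4*), where 28.1% of all genes tested were called, 15.2% higher and 12.9% lower. In EPRSTOPE against mock, 6 were called: *Rb1* rose, and *Cdkn2a*, *Cdkn2c*, *Cdkn2d*, *Cdkn1b* and *Cdk4* fell, where 28% of all genes were called, 15.6% higher and 12.4% lower. The median log2 fold change of the 10 genes was -0.59 and -0.44 in these comparisons, beside -0.01 and -0.04 over all genes tested. Both comparisons use the same 3 mock libraries, so their values are given side by side and are not independent of each other. In EPR against EPRSTOPE, 3 of the 10 were called, with *Cdkn2b* and *Cdkn2d* higher and *Rbl1* lower in EPR cells, where 13.2% of all genes were called, 6.86% higher and 6.35% lower. The medians there were 0.20 for the 10 genes and 0.01 for all genes.

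Libraries did not overlap between groups for 9 of the 10 genes in each of the comparisons, taken in the same order, where this held for 57.8%, 56.5% and 43% of all genes. Against mock, 3 of the 9 were higher and 6 lower in EPR cells, beside 28.9% of all genes in either direction, and likewise 3 higher and 6 lower in EPRSTOPE cells, beside 28.2% and 28.3%. Between EPR and EPRSTOPE, 6 were higher and 3 lower in EPR cells, beside 20.8% and 22.2%. For each of these genes the exact two-sided permutation test of mean CPM gave p = 0.1, the smallest that 3 libraries against 3 allow. The exceptions were *Rb1* in EPR against mock (exact permutation p = 0.5), *Cdkn2b* in EPRSTOPE against mock (p = 0.4, exact permutation test) and *Rbl2* in EPR against EPRSTOPE (p = 0.3, exact permutation test).

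**Figure D2:**
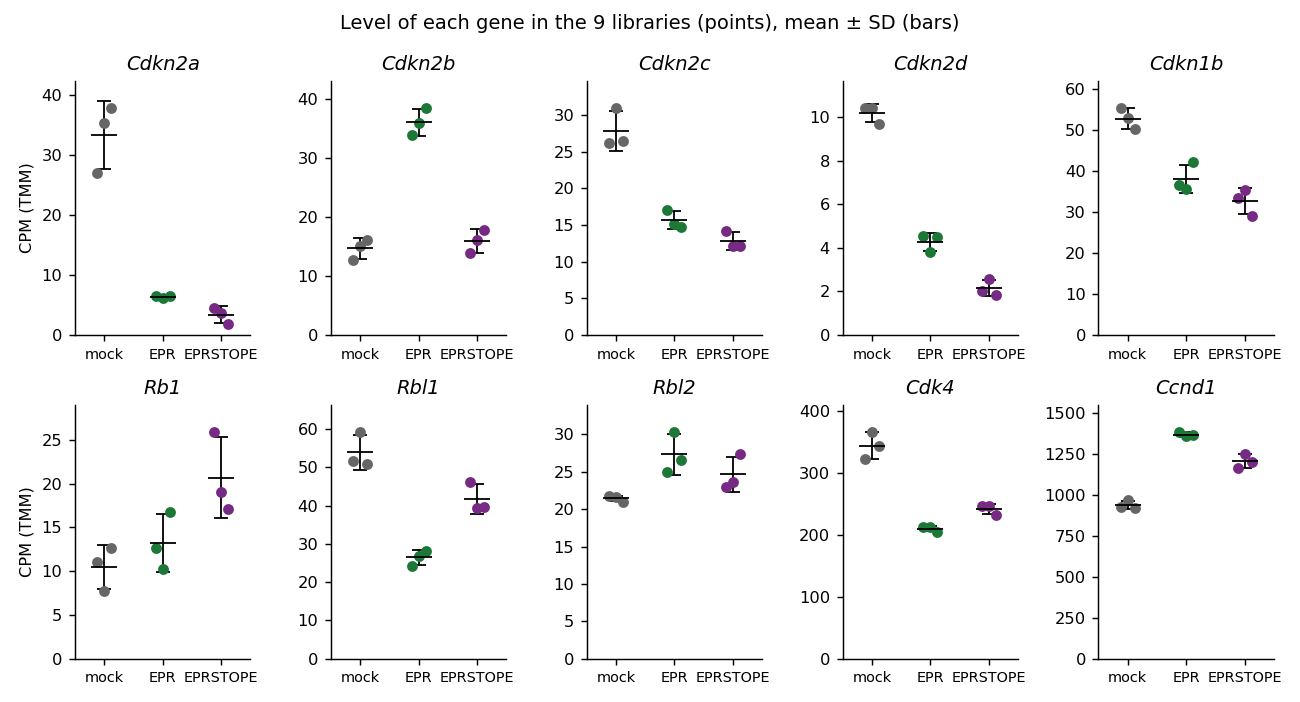
CPM of each of the 10 genes (vertical axes, each from 0) in the mock, EPR and EPRSTOPE libraries as points, with mean ± SD of the 3 libraries as bars. Cdkn2a is highest in the mock libraries, at 27.0 to 37.8 CPM, and Cdkn2b is highest in the EPR libraries, at 33.9 to 38.5 CPM.

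*Cdkn2b*, which encodes p15INK4b and lies beside *Cdkn2a* on chromosome 4 (ENSMUSG00000073802.4, chr4:89306299-89311039, minus strand), took another course than its neighbour. It stood at 12.7, 15.2 and 16.2 CPM in mock libraries, 33.9, 36.0 and 38.5 CPM in EPR libraries and 13.9, 16.2 and 17.9 CPM in EPRSTOPE libraries. EPR libraries were thus above all others, while mock and EPRSTOPE libraries overlapped. It rose in EPR cells with a log2 fold change of 1.28 (SE 0.12, adjusted p = 2.8e-06 in edgeR), and was higher by 1.16 in EPR than in EPRSTOPE cells (SE 0.12, adjusted p = 1.9e-05 in edgeR). In EPRSTOPE against mock the log2 fold change was 0.12 with a 95% interval of -0.16 to 0.40. Each of these 3 outcomes was the same under all 18 alternatives tried.

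*Cdkn2c*, the gene of p18INK4c (ENSMUSG00000028551.14, chr4:109660876-109667189), had 26.1, 30.9 and 26.4 CPM in mock, 17.1, 15.2 and 14.7 CPM in EPR and 14.2, 12.1 and 12.1 CPM in EPRSTOPE libraries. Mock libraries were the highest and EPRSTOPE libraries the lowest, with no overlap. It fell in EPR cells (log2 fold change -0.83, SE 0.11, adjusted p = 7.9e-05 in edgeR) and in EPRSTOPE cells (-1.13, SE 0.12, adjusted p = 8.1e-06 in edgeR). The first of these was lost with counts scaled from TPM (adjusted p = 0.016 in edgeR), and the difference between EPR and EPRSTOPE, 0.30 with a 95% interval of 0.03 to 0.57, did not pass.

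*Cdkn2d*, the gene of p19INK4d (ENSMUSG00000096472.2, chromosome 9), stood at 10.4, 10.4 and 9.69 CPM in mock, 4.54, 3.79 and 4.49 CPM in EPR and 2.03, 2.56 and 1.84 CPM in EPRSTOPE libraries, again in that order without overlap. It fell in EPR cells (log2 fold change -1.24, SE 0.19, adjusted p = 1.7e-04 in edgeR) and in EPRSTOPE cells (-2.23, SE 0.21, adjusted p = 2.9e-06 in edgeR). It was higher in EPR than in EPRSTOPE cells by 0.99 (SE 0.22, adjusted p = 0.0049 in edgeR). That last call rested on 12 to 52 counts per library and was lost under 8 of 18 alternatives, among them DESeq2 and limma with voom (adjusted p = 0.011 in both), and leaving out EPR library 206 or 208 or EPRSTOPE library 209 or 211 (adjusted p = 0.019, 0.016, 0.014 and 0.023 in edgeR).

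Scaled by transcript length as transcripts per 1000000 (TPM), *Cdkn2b*, *Cdkn2c* and *Cdkn2d* summed to 36.5 ± 5.1 in mock cells, to 36.0 ± 1.4 in EPR cells and to 20.9 ± 3.7 in EPRSTOPE cells (SD, n = 3). *Cdkn2b* made up 30.2 ± 3.4% of that sum in mock cells, 69.3 ± 4.1% in EPR cells and 55.0 ± 3.1% in EPRSTOPE cells. In EPR cells the sum of these INK4 transcripts was thus near the mock level while its makeup had moved towards *Cdkn2b*, and in EPRSTOPE cells the sum was below both. These sums and shares are descriptions, with no test.

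*Cdkn1b*, which encodes p27KIP1 (ENSMUSG00000003031.14, chromosome 6), was at 55.3, 52.9 and 50.2 CPM in mock, 36.5, 35.7 and 42.1 CPM in EPR and 33.4, 35.3 and 29.1 CPM in EPRSTOPE libraries. All mock libraries were above all others. It fell in EPRSTOPE cells (log2 fold change -0.69, SE 0.10, adjusted p = 7.7e-05 in edgeR), a call lost with counts scaled from TPM (adjusted p = 0.1). In EPR cells the log2 fold change was -0.47 (SE 0.09, adjusted p = 0.0013 in edgeR), which did not reach the fold threshold. It passed without mock library 205 (-0.51) or EPR library 208 (-0.53).

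The kinase and its cyclin moved in opposite directions. *Cdk4* (ENSMUSG00000006728.12, chromosome 10) was at 322, 366 and 344 CPM in mock, 213, 212 and 205 CPM in EPR and 246, 246 and 232 CPM in EPRSTOPE libraries. Mock libraries were the highest and EPR libraries the lowest, with no overlap. It fell in EPR cells with a log2 fold change of -0.71 (SE 0.06, adjusted p = 1.1e-06 in edgeR) and in EPRSTOPE cells with -0.51 (SE 0.06, adjusted p = 1.8e-05 in edgeR). The latter lay close to the fold threshold and was lost when only those groups were fitted (-0.49) and without mock library 204 (-0.47) or EPRSTOPE library 211 (-0.48). Only 46.9 to 61.7% of the *Cdk4* counts of a library were on protein-coding transcripts, and *Tspan31* on the opposite strand overlaps the gene, with 59.8 CPM in mock, 81.9 CPM in EPR and 79.4 CPM in EPRSTOPE cells on average.

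*Ccnd1* (ENSMUSG00000070348.5, chromosome 7) was at 922, 966 and 921 CPM in mock, 1382, 1356 and 1361 CPM in EPR and 1165, 1248 and 1202 CPM in EPRSTOPE libraries. Its order, EPR above EPRSTOPE above mock, held in every library. It rose in EPR cells (log2 fold change 0.55, SE 0.04, adjusted p = 7.6e-07 in edgeR), a call lost with counts scaled from TPM (0.45). In EPRSTOPE cells it was higher by 0.36 (SE 0.04, adjusted p = 2.4e-05 in edgeR), and in EPR than in EPRSTOPE cells by 0.18 (SE 0.04, adjusted p = 0.0078 in edgeR), both below the fold threshold. Of the summed TPM of the 3 D cyclins, *Ccnd1* held 78.9 ± 1.1% in mock cells, and this share was 82.3 ± 1.3% in EPR cells and 89.0 ± 1.1% in the EPRSTOPE libraries (SD, n = 3).

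The pocket proteins diverged from one another. *Rbl1*, the gene of p107 and itself an E2F target (ENSMUSG00000027641.13, chromosome 2), stood at 51.6, 59.2 and 50.8 CPM in mock, 24.3, 26.9 and 28.2 CPM in EPR and 46.2, 39.4 and 39.6 CPM in EPRSTOPE libraries. EPR libraries were the lowest and mock libraries the highest, with no overlap. It fell in EPR cells (log2 fold change -1.03, SE 0.10, adjusted p = 3.5e-06 in edgeR) and was lower in EPR than in EPRSTOPE cells by a log2 difference of -0.65 (SE 0.10, adjusted p = 3.8e-04 in edgeR), the latter lost with counts scaled from TPM (adjusted p = 0.078). In EPRSTOPE cells the log2 fold change against mock was -0.37 (SE 0.10, adjusted p = 0.0069 in edgeR), below the fold threshold.

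*Rb1* (ENSMUSG00000022105.6, chromosome 14) was at 11.0, 7.70 and 12.7 CPM in mock, 12.6, 10.2 and 16.8 CPM in EPR and 25.9, 19.1 and 17.1 CPM in EPRSTOPE libraries. Mock and EPR libraries overlapped, and EPRSTOPE libraries lay above both. It rose in EPRSTOPE cells with a log2 fold change of 0.97 (SE 0.23, adjusted p = 0.004 in edgeR), while in EPR cells it was 0.34 with a 95% interval of -0.17 to 0.84, and between EPR and EPRSTOPE -0.63 (SE 0.22, adjusted p = 0.052 in edgeR). The call in EPRSTOPE cells was lost without mock library 203 (adjusted p = 0.011), mock library 204 (0.019) or EPRSTOPE library 209 (0.018), with protein-coding transcripts only (0.011) and with counts scaled from TPM (0.02, edgeR in each). *Lpar6* and *Rcbtb2* lie within or overlap the locus on the opposite strand, with averages of 6.05 and 10.1 CPM in mock, 13.1 and 14.4 CPM in EPR and 15.9 and 17.5 CPM in EPRSTOPE cells.

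*Rbl2*, the gene of p130 (ENSMUSG00000031666.15, chromosome 8), had 21.7, 21.6 and 21.0 CPM in mock, 25.0, 30.3 and 26.6 CPM in EPR and 23.0, 23.6 and 27.3 CPM in EPRSTOPE libraries. It was above mock in every other library but was not called, at a log2 fold change of 0.35 in EPR (95% interval 0.12 to 0.57, adjusted p = 0.015 in edgeR) and 0.20 in EPRSTOPE cells (95% interval -0.03 to 0.43). *Aktip* overlaps the locus on the opposite strand, with averages of 29.5 CPM in mock, 22.4 CPM in EPR and 19.5 CPM in EPRSTOPE cells. In TPM, the 3 pocket protein genes summed to 27.0 ± 1.2 in mock cells, to 23.4 ± 4 in EPR cells and to 32.1 ± 4.4 in EPRSTOPE cells (SD, n = 3). *Rbl1* held 52.8 ± 5.1% of that sum in mock cells, 30.6 ± 6% in EPR cells and 31.4 ± 2.3% in EPRSTOPE cells, and *Rb1* 24.7 ± 5.9%, 35.1 ± 12% and 44.4 ± 8.1%. The largest mean share was that of *Rbl1* in mock and that of *Rb1* in EPRSTOPE cells, and in EPR cells the shares of *Rb1* and *Rbl1* differed by less than an SD.

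**Figure D3:**
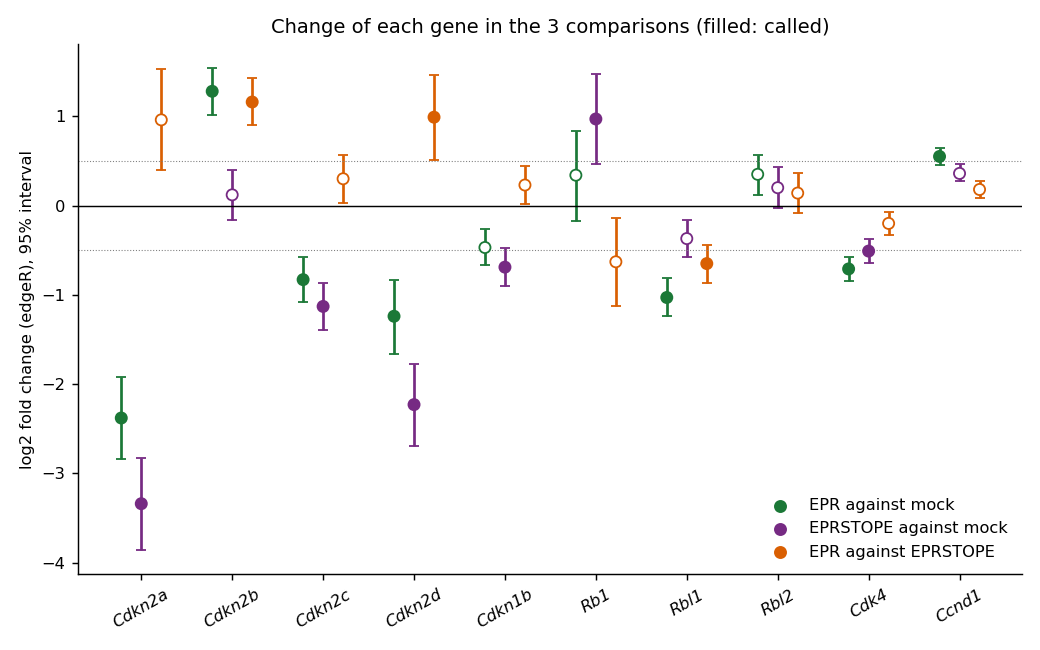
Log2 fold change of each gene (vertical axis) with its 95% interval in the 3 comparisons. Filled points were called, dotted lines mark a log2 fold change of 0.5 in either direction. Cdkn2a has the lowest values, -2.38 and -3.34, and Cdkn2b is at 1.28 and 0.12.

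Between genes, levels were compared in TPM. In mock cells the order was *Cdk4* (584 ± 16 TPM), *Ccnd1* (321 ± 26) and *Cdkn2a* (47.1 ± 4.5), followed by *Cdkn2c* (15.0 ± 2.4), *Rbl1* (14.3 ± 1.8), *Cdkn1b* (13.9 ± 1.8), *Cdkn2b* (11.0 ± 1.7), *Cdkn2d* (10.5 ± 1.6), *Rb1* (6.62 ± 1.3) and *Rbl2* (6.10 ± 1.7; SD, n = 3). Neighbours in this order differed by less than an SD from *Cdkn2c* to *Cdkn1b*, between *Cdkn2b* and *Cdkn2d* and between *Rb1* and *Rbl2*. In EPR cells *Ccnd1* led with 382 ± 8.1 TPM, *Cdk4* followed with 262 ± 32, and *Cdkn2b* with 24.9 ± 1.1 was the highest of the 5 inhibitor genes among the 10, ahead of *Cdkn1b* with 10.4 ± 0.81. In EPRSTOPE cells *Ccnd1* with 357 ± 53 and *Cdk4* with 324 ± 65 TPM lay within an SD of each other, while *Cdkn2a* had 4.38 ± 1.8 TPM, with only *Cdkn2d* below it.

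The promoters of *Cdkn2a* and *Cdkn2b* are shown because these neighbouring genes changed in different ways, and that of *Rbl1* because it fell with the E2F targets described further on. Each holds 250 bases before and 50 after a RefSeq start on GRCm38.p6, on the minus strand, and capitals mark a match to an E2F-type motif.
ARF promoter of Cdkn2a, chr4:89294570-89294869: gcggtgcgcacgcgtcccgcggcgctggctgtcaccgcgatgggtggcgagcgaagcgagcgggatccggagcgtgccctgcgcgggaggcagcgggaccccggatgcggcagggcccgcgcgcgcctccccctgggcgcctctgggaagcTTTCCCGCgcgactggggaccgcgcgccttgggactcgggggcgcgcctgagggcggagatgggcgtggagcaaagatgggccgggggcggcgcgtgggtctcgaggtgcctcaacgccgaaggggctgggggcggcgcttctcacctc
INK4a promoter of Cdkn2a, chr4:89282143-89282442: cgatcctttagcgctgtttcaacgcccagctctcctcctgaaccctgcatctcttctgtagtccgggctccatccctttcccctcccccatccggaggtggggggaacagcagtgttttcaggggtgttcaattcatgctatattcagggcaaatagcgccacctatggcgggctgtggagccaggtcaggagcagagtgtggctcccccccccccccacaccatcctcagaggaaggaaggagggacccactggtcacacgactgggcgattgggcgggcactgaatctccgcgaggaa
Cdkn2b promoter, chr4:89310983-89311282: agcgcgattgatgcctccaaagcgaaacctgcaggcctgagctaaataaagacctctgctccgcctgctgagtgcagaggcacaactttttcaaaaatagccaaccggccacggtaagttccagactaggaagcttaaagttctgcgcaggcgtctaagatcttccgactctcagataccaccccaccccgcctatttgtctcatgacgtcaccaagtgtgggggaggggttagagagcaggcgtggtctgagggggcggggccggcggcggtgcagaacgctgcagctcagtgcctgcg
Rbl1 promoter, chr2:157204485-157204784: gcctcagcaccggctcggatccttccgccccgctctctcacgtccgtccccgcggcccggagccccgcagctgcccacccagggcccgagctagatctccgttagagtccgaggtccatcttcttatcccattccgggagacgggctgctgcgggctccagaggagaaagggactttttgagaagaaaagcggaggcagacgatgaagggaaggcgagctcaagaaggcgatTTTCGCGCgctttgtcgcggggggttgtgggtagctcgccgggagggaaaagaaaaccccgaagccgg

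The motifs searched on both strands were TTTCCCGC, TTTCGCGC, TTTGCCGC and TTTGGCGC. The ARF window holds TTTCCCGC, which begins 99 bases before the start, and the *Rbl1* window holds TTTCGCGC, which begins 18 bases before it. No match lies in the INK4a or *Cdkn2b* window or in those of the other genes with an entry. Of 10 windows of 8 of the genes, 2 hold a match, and of all 32851 RefSeq windows of that length 744 do (2.26%). In base composition the ARF window has 77.0% G and C with 45 CpG, the INK4a window 60.3% with 12, the *Cdkn2b* window 57.7% with 18 and the *Rbl1* window 64.0% with 29, beside medians of 52.7% and 7 over all windows. A match is a description of the sequence only.

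The chromosomal surroundings were described from the 10 tested genes on each side, or fewer where the chromosome ends, as for *Ccnd1* with 11 in all. Around *Cdkn2a* the median log2 fold change of these 20 genes was -0.54 in EPR against mock, with 1 called higher and 5 lower, and -0.25 in EPRSTOPE against mock, with 1 higher and 2 lower. Over all genes tested, 15.2% were called higher and 12.9% lower in EPR against mock. In EPRSTOPE against mock these shares were 15.6% and 12.4%. Within 1 Mb of *Cdkn2a* the annotation lists 70 other genes, of which 66 are in the files and 11 were tested, many of the rest being interferon genes at or near 0. *Mtap*, which encodes methylthioadenosine phosphorylase and is the nearest tested gene on the side away from *Cdkn2b*, averaged 157 ± 9.9 CPM in mock cells, while EPR cells had 204 ± 9.7 CPM and EPRSTOPE cells 313 ± 12 CPM (SD, n = 3), a log2 fold change of 0.38 in EPR (adjusted p = 4.2e-04 in edgeR, below the fold threshold) and of 0.99 in EPRSTOPE cells (adjusted p = 1.1e-07 in edgeR). *Focad*, further along, was at 33.0 ± 0.95, 32.5 ± 1.4 and 32.5 ± 3.8 CPM, and *Gm26867*, a long non-coding RNA, fell in EPR cells (log2 fold change -1.79, adjusted p = 0.0024 in edgeR). *Klhl9*, on the same side as *Mtap*, was lower than mock in both groups, though short of the fold threshold. Its log2 fold change was -0.47 in EPR (adjusted p = 1.4e-04 in edgeR) and -0.39 in EPRSTOPE cells (adjusted p = 6.9e-04 in edgeR). The fall of *Cdkn2a* thus lay among neighbours with a negative median in both comparisons. The nearest tested genes on each side, *Mtap* and *Cdkn2b*, were not lower.

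*Rb1* lay among genes that were higher too. Of its 20 tested neighbours, 11 rose and 1 fell in EPR against mock, with a median log2 fold change of 0.98, and 12 rose and 1 fell in EPRSTOPE against mock, with a median of 1.10. Beside them, 15.2% of all genes were called higher and 12.9% lower in EPR, and 15.6% and 12.4% in EPRSTOPE against mock. Over the whole of chromosome 14 the median was 0.50 and 0.64. The value of *Rb1* itself in EPRSTOPE cells, 0.97, was near that of its neighbours, and in EPR cells, 0.34, it lay below them. The part of this regional shift in the value of *Rb1* was not tested. For the other 8 genes besides *Cdkn2a* and *Rb1*, the neighbours' medians ran from -0.54 beside *Cdkn2b* to 0.30 beside *Cdk4* in EPR against mock.

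**Figure D4:**
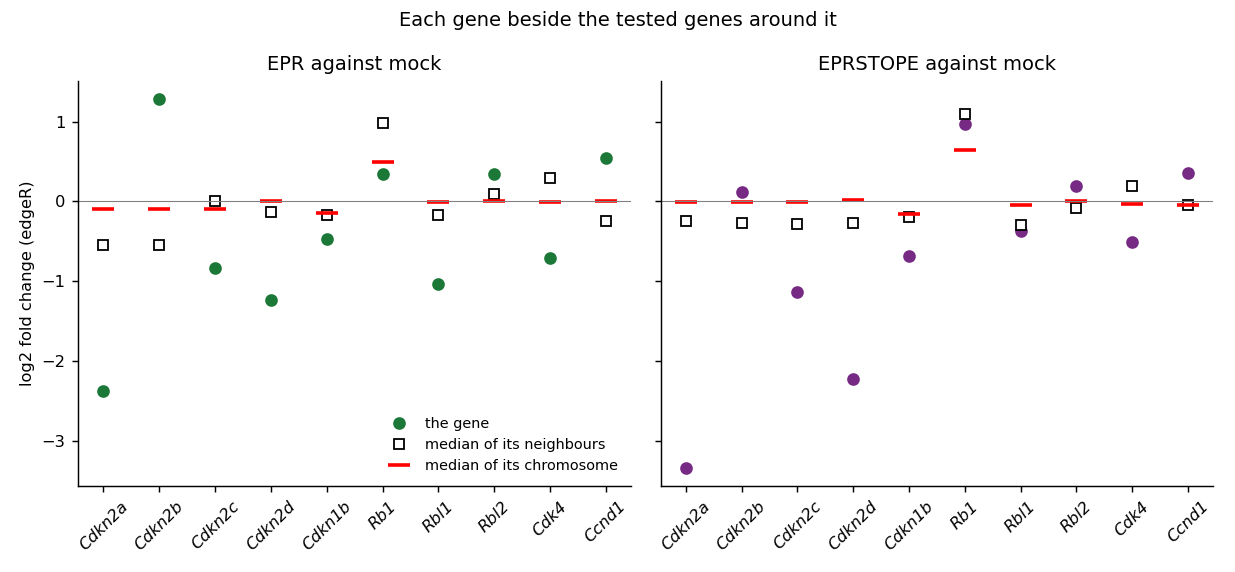
Log2 fold change of each gene (circles), the median of its nearest tested neighbours on both sides (open squares) and the median of its chromosome (red lines), for EPR against mock and EPRSTOPE against mock. The neighbours of Rb1 are at 0.98 and 1.10, and those of Cdkn2a at -0.54 and -0.25.

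Among all genes tested, the 3 whose log2 CPM followed that of *Cdkn2a* most closely over the 9 libraries were *Mad2l1* (Pearson r = 0.995), a spindle checkpoint gene, *Melk* (r = 0.993), a kinase gene of dividing cells, and *Id2* (r = 0.992), the gene of an inhibitor of basic helix-loop-helix factors. *Mad2l1* averaged 95.2 ± 1.3 CPM in mock cells, while EPR cells had 42.9 ± 0.25 CPM and EPRSTOPE cells 29.8 ± 5.1 CPM (SD, n = 3). Among the 10 genes, *Cdkn2c* and *Cdkn2d* (r = 0.97 each), *Cdkn1b* (0.96) and *Cdk4* (0.83) went with *Cdkn2a*. *Rbl1* (0.55) was between, and *Cdkn2b* (-0.31), *Rb1* (-0.68), *Rbl2* (-0.69) and *Ccnd1* (-0.78) went against it. The 9 points fall into the 3 groups, so these correlations mainly restate the order of the groups and carry no p.

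The other genes of the pathway were taken from lists of 79 genes, of which 77 were tested. In EPR against mock 7 were called higher and 36 lower, with a median log2 fold change of -0.52, where 15.2% of all genes were called higher and 12.9% lower. In EPRSTOPE against mock these counts were 10 and 21 with a median of -0.18, beside 15.6% and 12.4% of all genes, and in EPR against EPRSTOPE 5 and 25 with a median of -0.24, beside 6.86% and 6.35%. In each comparison the share called lower was above that of all genes. The share called higher was below it, in EPR against EPRSTOPE only narrowly. The lists were chosen with earlier results of these data known, so these shares are descriptions and no independent support.

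The list of 18 E2F target genes holds mostly genes for replication and S phase, with the mitotic kinase gene *Cdk1* among them. In EPR against mock 16 were called lower and the other 2 were not called, with a median of -0.91, where 12.9% of all genes were called lower. *Rrm2*, a subunit of ribonucleotide reductase, went from 298 ± 14 to 84.7 ± 1.3 CPM (log2 fold change -1.82), the cyclin A2 gene *Ccna2* from 198 ± 12 to 77.1 ± 0.39 CPM (-1.36) and the DNA polymerase gene *Pola1* from 95.2 ± 2.8 to 37.4 ± 4.1 CPM (-1.34; SD, n = 3). In EPRSTOPE against mock 7 were lower, 2 were higher and 9 were not called, with a median of -0.36. There 12.4% of all genes were called lower and 15.6% higher, so the 2 that rose are below that background. *Ccna2* fell to 48.0 ± 2 CPM (-2.05) and *Cdk1* from 181 ± 7.7 to 66.2 ± 2.6 CPM (-1.46), whereas the replication licensing genes *Cdc6*, at 90.1 ± 8 against 54.2 ± 3.8 CPM (0.73), and *Cdt1*, at 77.6 ± 6.2 against 51.1 ± 2.4 CPM (0.60), rose.

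Tested directly, EPR cells had 12 of the 18 E2F targets lower than EPRSTOPE cells and 2 higher, with a median of -0.59. Over all genes, 6.35% were called lower and 6.86% higher in this comparison. *Cdc6* (log2 difference -1.68, adjusted p = 4.5e-08 in edgeR), *Cdt1* (-1.05) and the helicase gene *Mcm5* (-0.90) led the lower side. *Ccna2* (0.69) and *Cdk1* (0.64) were the 2 higher ones. *Rbl1*, with its log2 difference of -0.65 in this comparison, was on the side of the licensing genes.

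Of 10 E2F and DP genes, 6 fell and 1 rose in EPR, and 4 fell and 2 rose in EPRSTOPE against mock. Over all genes, 12.9% were called lower and 15.2% higher in EPR, and 12.4% and 15.6% in EPRSTOPE against mock. The counts that rose are near that background. *E2f2* rose from 4.32 ± 0.9 CPM to 25.4 ± 3.2 in EPR (log2 fold change 2.52) and 30.5 ± 2.4 in EPRSTOPE cells (2.78), and the repressor gene *E2f7* fell from 30.7 ± 3.7 to 8.93 ± 2.1 (-1.76) and 13.4 ± 1.6 CPM (-1.20; SD, n = 3). *E2f1* was lower in EPR than in EPRSTOPE cells (log2 difference -0.97, adjusted p = 1.8e-04 in edgeR). Of the 7 genes of the DREAM and MuvB list, the partners of p107 and p130 in repression and of B-Myb in activation, 4 fell in each mock comparison. *Mybl2*, which encodes B-Myb, went from 101 ± 9.8 to 21.0 ± 3.3 CPM in EPR (-2.26) and 35.6 ± 1.2 CPM in EPRSTOPE cells (-1.51), and *Foxm1* from 117 ± 2.7 to 36.9 ± 2.6 (-1.67) and 24.9 ± 2.6 CPM (-2.23).

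**Figure D5:**
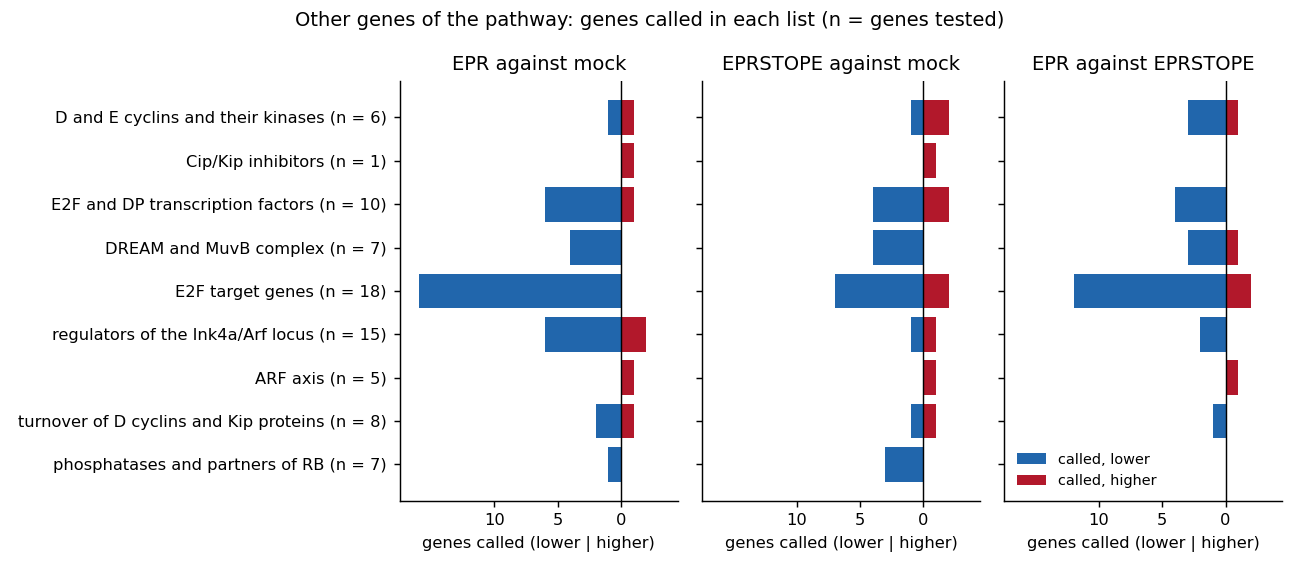
Number of genes called lower (left, blue) and higher (right, red) in each list of other pathway genes, for the 3 comparisons, with the number of genes tested beside the list's name. The E2F targets have 16 of 18 called lower in EPR against mock, 7 in EPRSTOPE against mock and 12 in EPR against EPRSTOPE. Of all genes tested, 12.9%, 12.4% and 6.35% were called lower.

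The other cyclins and kinases went separate ways. *Ccnd2*, the gene of cyclin D2, was at 185, 168 and 173 CPM in mock, 353, 315 and 331 CPM in EPR and 80.3, 83.4 and 83.3 CPM in EPRSTOPE libraries. It was thus raised in EPR (log2 fold change 0.93, adjusted p = 1.5e-07 in edgeR) and lowered in EPRSTOPE cells (-1.09, adjusted p = 3.9e-08 in edgeR), with a direct difference of 2.02 (SE 0.06, adjusted p = 1.5e-09 in edgeR). The cyclin E genes *Ccne1* and *Ccne2* rose in EPRSTOPE cells, by 1.48 and 0.69, and the CDK2 gene *Cdk2* fell in EPR cells (-0.68). *Ccnd3*, the gene of cyclin D3, and *Cdk6*, the other kinase gene partnered with D cyclins, were not called in any comparison, with log2 fold changes from -0.24 to 0.14.

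On the side of ARF and p53, *Mdm2*, which encodes the p53 ligase that ARF restrains, rose from 77.0 ± 3.8 CPM to 388 ± 4.2 in EPR (log2 fold change 2.33, adjusted p = 5.3e-11 in edgeR) and 288 ± 15 in EPRSTOPE cells (1.90, adjusted p = 2.3e-10 in edgeR). *Cdkn1a*, the gene of p21, a Cip/Kip inhibitor and p53 target, rose from 7.29 ± 0.84 CPM to 96.9 ± 5.5 (3.71) and 79.8 ± 4.5 CPM (3.44). For *Cdkn1a*, the paper proposes that EPR sustains transcription through SMAD3 and limits mRNA decay by the factor KHSRP. The rises of *Mdm2* and *Cdkn1a* stand beside the falls of *Cdkn2a* in the same libraries, and a part of ARF or p53 in them was not tested. *Trp53* itself had log2 fold changes of -0.48 and -0.41 (adjusted p = 0.0032 and 0.0082 in edgeR), below the fold threshold. Of the 5 genes on the ARF list 1 was called in each comparison. Over all genes, 28.1% were called in EPR against mock, 28% in EPRSTOPE against mock and 13.2% in EPR against EPRSTOPE. *Cdkn1c*, the third Cip/Kip gene, was below the filter.

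Of 15 tested regulators of the Ink4a/Arf locus, 6 fell and 2 rose in EPR, and 1 fell and 1 rose in EPRSTOPE against mock. Over all genes tested, 12.9% were called lower and 15.2% higher in EPR and 12.4% and 15.6% in EPRSTOPE cells, so the 2 that rose in EPR cells are near that background and the counts in EPRSTOPE cells below it. *Ezh2*, the methyltransferase of Polycomb complex PRC2, fell from 100 ± 4.2 CPM to 48.8 ± 2.2 (log2 fold change -1.04) and 63.2 ± 0.37 CPM (-0.67), and *Ets2*, a factor known to activate the INK4a promoter, rose from 148 ± 3.4 CPM to 396 ± 6.1 (1.42) and 301 ± 13 CPM (1.03). *Id1*, which encodes a factor known to act against Ets factors at the INK4a promoter, also rose in EPR cells, from 83.5 ± 3.7 to 133 ± 7.1 CPM (0.67, adjusted p = 3.7e-06 in edgeR). Nearly all *Cdkn2a* counts were on the ARF transcript, and a part of *Ets2* or *Id1* in its level was not tested. *Bmi1*, a repressor of the locus in PRC1, went from 69.3 ± 5.4 to 48.1 ± 4.1 CPM in EPR cells (-0.52, adjusted p = 2.8e-04 in edgeR), and *Cbx2* and *Kdm2b* fell in EPR cells by 0.72 and 0.67 on the log2 scale. Among 8 genes for turnover of D cyclins and p27, *Skp2* (-0.77) and *Cks1b* (-0.62), parts of the ligase that degrades p27, fell in EPR cells and *Fbxo4* rose (0.81). In EPRSTOPE cells *Cks1b* (-0.89) fell and *Fbxo4* (1.03) rose. The 1 of 8 called higher in each mock comparison, and the 1 of 8 called lower in EPRSTOPE cells, are near the background of all genes. Of 7 phosphatases and partners of the retinoblastoma protein, *Suv39h1*, a histone methyltransferase gene, fell in EPR (-1.13) and in EPRSTOPE cells (-1.06), and *Ppp1ca* (-0.76) and *Hdac1* (-0.63) fell in EPRSTOPE cells. The 1 of 7 called lower in EPR cells is near the background of all genes.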

How the data were processed

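Per the labels and the study's methods, total RNA of 9 libraries (miRNeasy extraction, TruSeq Stranded Total RNA, paired reads) was quantified by the authors with Kallisto 0.43.1 (bcl2fastq 2.0 is also named) on Gencode vM15 mouse transcripts of GRCm38.p5. The deposited estimated counts (expected counts) are not normalized, and the deposited TPM values are scaled by effective length to 1000000 per library. A setting for strand in the quantification was not found in the sources used here, so genes overlapping on opposite strands are uncertain. The labels name hg38 as well, which was not used, and they and the methods name different sequencers and read lengths.

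Estimated counts were summed per gene symbol, rounded, and kept at 1 CPM or more in at least 3 libraries, leaving 15370 genes and 45412 transcripts. The test was that of edgeR 4.0.16 in R 4.3.3 (quasi-likelihood, TMM, 1 factor of 3 levels over 9 libraries, no covariate) with Benjamini-Hochberg adjustment over all features. A call needed a log2 fold change over 0.5 in size at an adjusted p below 0.01. These thresholds follow the study's methods, which applied them to transcripts in limma with voom. The paper's own comparison of EPR with EPRSTOPE used stricter cut-offs. Biological coefficients of variation were 0.1317 (genes) and 0.7089 (transcripts). CPM are TMM-normalized, with mean ± SD of 3 libraries, and SE was derived from the F statistic. Log2 CPM for correlations used a prior count of 2. Depth was 5972457 to 11876435 counts per library. Single genes were also compared by exact permutation. The rest used Python 3.11.15 with matplotlib 3.10.9, scipy 1.17.1, numpy 2.4.6 and pandas 2.3.3. The scripts were tested on simulated counts.

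Named genes were the 10 genes, every *Cdkn2a* transcript, up to 3 called genes per list, direction and comparison with the largest change, the 3 genes most like *Cdkn2a*, and the 10 tested genes on each side of a gene. *Ccnd3*, *Cdk6*, *Trp53*, *Bmi1*, *Cdkn1c*, the overlapping genes and single genes near *Cdkn2a* were added from the lists or the annotation. The members and lists were chosen with earlier results of these data known. Positions come from Gencode M21 on GRCm38, with gene IDs matched to the files, and promoters from RefSeq. Alternatives were DESeq2 1.42.0, limma 3.58.1 with voom, DESeq2's size factors, no filter, counts scaled from TPM, a minimum of 10 counts in each library, a fit of 2 groups, an adjusted p under 0.05 without a fold threshold, leaving out each library and, chosen after seeing the data, protein-coding transcripts only.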

Additional observations from a re-analysis of the deposited data

Results flagged for a closer look

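For 3 of the 10 genes the change from mock differed between EPR and EPRSTOPE cells by a test of the difference itself, which is the direct comparison of EPR with EPRSTOPE in edgeR. In that comparison 13.2% of all genes tested were called. The difference of the log2 fold changes was 1.16 for *Cdkn2b* (adjusted p = 1.9e-05 in edgeR), which was called higher in EPR but not in EPRSTOPE cells against mock, at 36.1 ± 2.3 CPM against 14.7 ± 1.8 in mock and 16.0 ± 2 CPM in EPRSTOPE cells (SD, n = 3). It was 0.99 for *Cdkn2d* (adjusted p = 0.0049 in edgeR), which fell in both, and -0.65 for *Rbl1* (adjusted p = 3.8e-04 in edgeR), which was called lower in EPR cells. The call of *Cdkn2b* was kept under all 18 alternatives, while that of *Cdkn2d* was lost under 8 and that of *Rbl1* under 1. EPR RNA was at 24.9 ± 1.9 CPM in EPR and 4.24 ± 0.48 CPM in EPRSTOPE cells, so its amount and the loss of the peptide cannot be told apart in these differences. Groups of 3 libraries are too small to look for single outlying libraries.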

How the results depend on the processing

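No paired analysis was possible because the groups compared share no replicate numbers. Over the 10 genes, the 3 comparisons and 18 alternatives, 506 of 540 values kept direction and side of the threshold, 20 lost the call, 14 gained one and 0 reversed. The count of the 10 genes called ran from 5 to 9 in EPR against mock, from 4 to 8 in EPRSTOPE against mock and from 1 to 6 in EPR against EPRSTOPE. The last moved from 3 to 5 with no filter, to 1 with counts scaled from TPM and to 6 at an adjusted p under 0.05 without a fold threshold. Over all genes, that last threshold called 7478, 7442 and 4637 genes in place of 4316, 4302 and 2031, and counts scaled from TPM called 907 in EPR against EPRSTOPE. With those scaled counts the libraries of EPR and EPRSTOPE did not overlap for 4 in place of 9 of the 10 genes. The cause of these shifts was not tested. The count of *Cdkn2a* transcripts called in EPR against mock was 0 to 1 on leaving out a library. Depth limits most the INK4a transcript, with 3 counts in all, and *Cdkn2d* in EPRSTOPE cells, with 12 to 24 counts per library.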
